A study of Homo sapiens with 4 samples.

Results

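The transcription factor NRF2 and the glutathione and thioredoxin systems it serves were followed in OVSAYO cells, an established line of ovarian clear cell carcinoma (CCC). A list of 53 genes was taken by symbol, and a spot was assigned to a gene when its RefSeq accession mapped to that symbol. 52 of the 53 genes had a probe on the array, out of 17718 genes in all. No spot matched OSGIN1. 50 members were well above background on all 4 arrays and are called measured here, against 14285 genes over the whole array. GSTA1 and MGST1 were too dim on some arrays and are given below as bounds.

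RNA from 4 conditions was hybridised, each to 1 single-colour array. NS-si cells had received a non-specific control siRNA, and Sp1-si cells siRNA against the transcription factor Sp1. By the labels, all were cultured for 40 h after transfection, whereas a legend of the study gives a shorter time, so the length of this step is unsettled. NS-si → CoCl2 and Sp1-si → CoCl2 cells then spent 4 h in fresh medium with 0.5 mM CoCl2, a salt used to imitate hypoxia because cobalt stabilises the hypoxia-inducible factors, and the study describes a vehicle for the untreated cells. The comparisons ask how these genes responded to CoCl2 and how far their levels depended on Sp1.

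Each condition rests on 1 array, so there is no replicate, no test and no p-value, and no value can separate a condition from its own dish or array. Direct effects of losing Sp1 cannot be told apart from hits of the siRNA on other transcripts, nor fewer cells expressing a gene from less RNA per cell. Signals are the scanner's processed signals in arbitrary units, printed before any scaling between arrays, and they are not comparable between probes. Their 75th percentile was 1143 for NS-si, 1100 for Sp1-si, 977 for NS-si → CoCl2 and 1287 for Sp1-si → CoCl2 cells. Printed signals can therefore differ between arrays where the ratio does not, or in the other direction, and arrays are compared by the ratios. Ratios are differences of log2 signals after each array was set to its 75th percentile. A member is called higher or lower where a ratio reached 1 on the log2 scale, which is 2-fold. Values after ± are SDs from spots printed 10 times on each array, taken from the probe itself where it had 10 spots. Otherwise they came from 10-spot probes of like level, averaged over the 4 arrays. They can thus be too small for a gene that is dim on only some arrays, such as NQO1. These SDs cover the spread between spots only. For the 4 ratios the median SD ran from 0.15 to 0.17 among the dimmest probes of this kind and was 0.06 among the brightest.

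SP1, the siRNA target, gave signals of 553 for NS-si, 39.3 for Sp1-si, 430 for NS-si → CoCl2 and 38.8 for Sp1-si → CoCl2 cells, so both Sp1-si arrays lay below both NS-si arrays. The SP1 ratio between Sp1-si and NS-si cells was -3.77 without and -3.87 with CoCl2, and a second SP1 probe gave -3.96 and -4.30. PAX8, NAPSA and ANXA4, markers of CCC, and the epithelial genes KRT7, KRT8, KRT18, EPCAM and CDH1 were well above background on every array. Of 7 markers of leukocytes, fibroblasts and endothelium with a probe, PTPRC, PECAM1 and CDH5 did not clear the background on any of the arrays. CD3E, CD68, DCN and LUM did, and the summed signal of these 7 markers was 1776 for NS-si, 839 for Sp1-si, 1654 for NS-si → CoCl2 and 1166 for Sp1-si → CoCl2 cells. This sum was thus lower on the Sp1-si arrays, and its part in the results was not tested. Between 76.3% and 79.6% of the spots were well above background, and no spot of a member was saturated.

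NRF2, encoded by NFE2L2, is held at a low level by KEAP1, an adaptor that marks it for degradation. Electrophiles and oxidants disable KEAP1, and NRF2 then pairs with a small MAF protein and binds antioxidant response elements near genes for glutathione synthesis, quinone reduction and the thioredoxin system. These enzymes detoxify reactive compounds and return oxidised thiols to their reduced state. Much of NRF2's control lies in the stability of the protein, which arrays do not measure. Sp1 binds GC boxes, which are common in the promoters of widely expressed genes.

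The promoters of GCLC, GCLM, TXNRD1, NQO1, GPX3, GPX8 and TXNIP are shown so that the sites named above can be seen. These are the 7 members with a ratio over 2 in size, 14% of the 50 measured, against 3.69% of all measured genes. The set was chosen after the values were seen. RefSeq promoter windows on GRCh38.p14 were found for 44 of the 53 members, and only the 250 bases before each transcript start were searched. The core of the antioxidant response element was written as TGACNNNGC and the GC box as GGGCGG, both were searched on both strands, and no match to one overlapped a match to the other in any member. Each sequence runs in the direction of its gene and ends just before the transcript start, with matches to either motif in capitals. A GC box on the opposite strand therefore reads CCGCCC.
GCLC (chr6:53545102-53545351, minus strand): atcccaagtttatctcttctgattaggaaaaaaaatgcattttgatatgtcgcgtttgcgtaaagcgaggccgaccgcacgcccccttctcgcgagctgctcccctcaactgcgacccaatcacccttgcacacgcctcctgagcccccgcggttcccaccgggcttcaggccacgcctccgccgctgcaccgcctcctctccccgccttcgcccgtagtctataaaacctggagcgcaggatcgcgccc
GCLM (chr1:93909431-93909680, minus strand): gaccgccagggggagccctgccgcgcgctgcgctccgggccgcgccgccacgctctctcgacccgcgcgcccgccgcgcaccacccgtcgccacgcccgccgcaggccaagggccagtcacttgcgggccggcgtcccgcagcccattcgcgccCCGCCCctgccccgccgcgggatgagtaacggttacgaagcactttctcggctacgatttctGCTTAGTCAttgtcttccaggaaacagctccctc
TXNRD1 (chr12:104215529-104215778, plus strand): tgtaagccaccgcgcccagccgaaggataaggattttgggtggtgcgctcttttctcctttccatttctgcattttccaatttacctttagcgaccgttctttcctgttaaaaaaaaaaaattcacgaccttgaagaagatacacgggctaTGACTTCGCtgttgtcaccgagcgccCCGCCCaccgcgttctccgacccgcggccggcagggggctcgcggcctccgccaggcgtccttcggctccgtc
TXNRD1 (chr12:104286782-104287031, plus strand): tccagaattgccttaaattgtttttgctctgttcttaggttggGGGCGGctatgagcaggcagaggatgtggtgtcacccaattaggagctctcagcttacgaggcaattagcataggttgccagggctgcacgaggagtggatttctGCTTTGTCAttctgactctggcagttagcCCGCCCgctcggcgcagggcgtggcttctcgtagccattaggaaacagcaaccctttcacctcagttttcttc
NQO1 (chr16:69726561-69726810, minus strand): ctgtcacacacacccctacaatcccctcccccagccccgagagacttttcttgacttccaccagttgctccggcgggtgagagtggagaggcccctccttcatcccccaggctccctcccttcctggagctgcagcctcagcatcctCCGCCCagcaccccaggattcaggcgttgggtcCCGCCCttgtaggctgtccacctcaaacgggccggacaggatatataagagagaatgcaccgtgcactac
GPX3 (chr5:151020341-151020590, plus strand): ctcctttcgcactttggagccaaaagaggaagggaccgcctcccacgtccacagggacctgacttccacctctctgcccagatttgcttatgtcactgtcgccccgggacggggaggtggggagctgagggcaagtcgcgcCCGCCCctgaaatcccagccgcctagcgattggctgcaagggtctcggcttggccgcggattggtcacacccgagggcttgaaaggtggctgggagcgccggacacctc
GPX8 (chr5:55159921-55160170, plus strand): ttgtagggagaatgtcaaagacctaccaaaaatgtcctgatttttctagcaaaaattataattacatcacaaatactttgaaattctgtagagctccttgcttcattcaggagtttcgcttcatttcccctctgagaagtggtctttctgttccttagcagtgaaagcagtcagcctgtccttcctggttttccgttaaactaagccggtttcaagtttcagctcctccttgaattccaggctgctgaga
TXNIP (chr1:145996580-145996829, minus strand): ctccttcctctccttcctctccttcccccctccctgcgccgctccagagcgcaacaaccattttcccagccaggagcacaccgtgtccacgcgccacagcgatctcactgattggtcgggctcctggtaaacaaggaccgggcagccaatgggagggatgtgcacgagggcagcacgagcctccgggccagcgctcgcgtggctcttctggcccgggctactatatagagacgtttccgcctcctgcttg
TXNIP (chr1:145995745-145995994, minus strand): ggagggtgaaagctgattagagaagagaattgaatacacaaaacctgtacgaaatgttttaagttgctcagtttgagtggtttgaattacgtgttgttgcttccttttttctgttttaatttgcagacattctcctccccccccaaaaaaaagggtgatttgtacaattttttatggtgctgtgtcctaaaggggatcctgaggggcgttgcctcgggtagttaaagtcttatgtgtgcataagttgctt
GCLM had 1 match to the element core, which began 34 bases before the start. TXNRD1, shown at 2 alternative starts as TXNIP is, had 1 match before each, at 99 and 102 bases. The windows of the other 5 genes held no such match. For GCLC and NQO1, as background, the best studied elements lie farther upstream. NQO1 held 2 GC boxes, GPX3 and GCLM 1 each, and TXNRD1 1 and 2 in its windows as listed, whereas GCLC, GPX8 and TXNIP held none.

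Across the measured members, 12 of 58 promoter windows (20.7%) held the element core, against 11.6% of 16392 windows of measured genes. The GC box was found in 47 of the 58 windows (81.0%), against 60.1% of windows of measured genes. Among the 6 members called higher with CoCl2 in either kind of cell, which had 7 windows, 3 windows held the element core and 5 held a GC box. Those 3 belonged to GCLM and TXNRD1 only, TXNRD1 being counted at both of its starts. Members called lower in Sp1-si cells without CoCl2 had 9 windows from 8 genes, as MGST2 and ABCC3 had none. Of these windows 4 held the element core, in GCLM, ME1 and TXNRD1 at both starts, and 5 a GC box. Of 3 windows of the members called higher there, 1 held a GC box and 0 the element core. These matches describe letters only and are neither sites of binding nor causes.

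CoCl2 was accompanied by higher signals of a small set of members. In NS-si cells 5 of the 50 measured members (10%) were called higher, namely MAFG, GCLC, GCLM, TXNRD1 and SRXN1, where 3.75% of all measured genes were. TXNIP was the 1 member called lower, 2% against 3.12% of all genes. In Sp1-si cells 5 members were called higher, NQO1, GCLC, GCLM, TXNRD1 and SRXN1, where 3.37% of all genes were, and 0 were called lower, where 3.67% of all genes were. GCLC, GCLM, TXNRD1 and SRXN1 were called higher in both kinds of cell, which was 8% of the members and 2.15% of all genes. The median ratio over all 50 members was 0.06 in NS-si cells, with 30 members above 0 and 20 below, and it turned to -0.03 under quantile normalization. In Sp1-si cells the median was 0.16, with 35 members above 0 and 15 below. The median of all genes was 0.00 in either kind of cell.

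More members were called between Sp1-si and NS-si cells than in the CoCl2 ratios, as were more of all genes. Without CoCl2, 10 of 50 members (20%) were called lower on the Sp1-si array, against 5.64% of all genes, and 2 (4%) were called higher, against 5.85%. With CoCl2, 8 members (16%) were called lower, against 7.7% of all genes, and 4 (8%) higher, against 7.01%. This balance depends on the scaling: with none, 5 members (3.52% of all genes) were lower with CoCl2 and 7 (16.0% of all genes) higher. NQO1, GCLC, GPX8, MGST2, TXNRD1, SRXN1, ME1 and ABCC2 were called lower in both, which was 16% of the members and 4.02% of all genes. Under 9 alternative settings, the calls with CoCl2 were lost in 5 for TXNRD1, 2 for ME1 and 1 for SRXN1. GPX3 and TXNIP were called higher in both, which was 4% of the members and 4.19% of all genes. The median ratio of the members was -0.17 without and -0.08 with CoCl2, beside -0.01 and -0.02 for all genes, and the second median turned to 0.04 under median scaling and 0.32 with no scaling, where that of all genes was 0.38. These 4 sets of ratios share arrays: the NS-si array is the denominator of both the CoCl2 ratio in NS-si cells and the Sp1-si ratio without CoCl2. Likewise, the Sp1-si array is the denominator of the CoCl2 ratio in Sp1-si cells and the numerator of the Sp1-si ratio without CoCl2.

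15 members (30%) were called in at least 1 of the 4 ratios, as were 24.2% of all measured genes. 20 members (40%) stayed under 0.5 on the log2 scale in all 4 ratios, close to the 38.3% of all genes. The other 15 (30%) had a largest ratio between 0.5 and 1, against 37.4% of all genes. The 20 members under 0.5 included NFE2L2 itself, TXN, GPX1, GPX4, GSTP1, SOD1 and 4 of the 6 peroxiredoxins.

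Among the sensor and the regulators, NFE2L2 signals were 10329 for NS-si, 8061 for Sp1-si, 8999 for NS-si → CoCl2 and 8607 for Sp1-si → CoCl2 cells. The CoCl2 ratios of NFE2L2 were 0.03 and -0.13, well inside the limit. KEAP1 signals were 2848, 2278, 3481 and 3652 in the same order, with CoCl2 ratios of 0.52 in NS-si cells against 0.45 for Sp1-si, both short of a call.

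MAFG, a small MAF protein that pairs with NRF2, had signals of 15986 on the NS-si and 16837 on the Sp1-si array, and of 35588 and 34830 after CoCl2. Both treated arrays lay above both untreated ones. The MAFG ratio was 1.38 ± 0.06 in NS-si cells, a call, and 0.82 ± 0.06 in Sp1-si cells, short of one. A second, dimmer MAFG probe gave 1.57 and 0.98. SQSTM1, which encodes the autophagy receptor p62 that binds KEAP1, stood just below the limit in both kinds of cell, with signals of 20284 and 15521 without CoCl2 and of 33334 and 36212 with it, and ratios of 0.94 and 0.99. NFE2L1, a relative of NRF2 known for control of proteasome genes, stayed within 0.42 of 0 in all 4 ratios by its brightest probe.

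The subunits of glutamate-cysteine ligase, the enzyme of the rate-limiting step of glutathione synthesis, had the largest CoCl2 ratios among the glutathione genes. GCLC encodes the catalytic subunit. Its signal was 3938 on the NS-si and 661 on the Sp1-si array, and after CoCl2 it was 21673 and 9424, respectively. Both treated arrays were above both untreated ones, and each Sp1-si array was below its NS-si counterpart. The CoCl2 ratio of GCLC was 2.69 ± 0.06 (6.44-fold) in NS-si cells against 3.61 ± 0.07 (12.2-fold) for Sp1-si. The Sp1-si to NS-si ratio was -2.52 without CoCl2 and -1.60 with it.

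GCLM encodes the modifier subunit, which makes the ligase more efficient. Its signals were 3022 and 953 without CoCl2 and 8468 and 7241 with it, in NS-si and Sp1-si cells respectively. The same order held as for GCLC, and by the ratios the Sp1-si array was nearer to its NS-si counterpart with CoCl2 than without it. The CoCl2 ratio of GCLM was 1.71 ± 0.06 in NS-si cells against 2.70 ± 0.07 for Sp1-si. The Sp1-si to NS-si ratio was -1.61 without CoCl2, a call, and -0.62 with it, which was not.

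The later steps moved less. GSS, the synthetase of the second step, stayed within 0.37 of 0 in all 4 ratios. GSR, the reductase that returns oxidised glutathione to its reduced form, had signals of 4653 for NS-si, 2904 for Sp1-si, 4335 for NS-si → CoCl2 and 3297 for Sp1-si → CoCl2 cells. Both Sp1-si arrays lay below both NS-si arrays for GSR, with ratios of -0.63 and -0.79 that missed the limit, while its CoCl2 ratios were 0.12 and -0.04.

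NQO1, the quinone reductase often used as a readout of NRF2, showed the lowest Sp1-si to NS-si ratio of all members without CoCl2. Its signal was 2247 on the NS-si and 157 on the Sp1-si array, and 2502 and 560 after CoCl2. The Sp1-si arrays were thus both far below the NS-si arrays. The ratio was -3.79 ± 0.08 without CoCl2 (13.8-fold lower) and -2.56 ± 0.07 with it (5.89-fold lower). In NS-si cells the CoCl2 ratio of NQO1 was only 0.38 ± 0.07, and in Sp1-si cells it was 1.61 ± 0.07. The other reductases differed little: NQO2, a relative of NQO1, had a largest ratio of 0.42, and CBR1, a carbonyl reductase, of 0.24.

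In the thioredoxin system, TXNRD1 moved much like GCLC. TXNRD1 is the cytosolic reductase that passes electrons from NADPH to thioredoxin. Its signals were 1233 on the NS-si and 248 on the Sp1-si array, and 4705 and 3052 after CoCl2. Its CoCl2 ratio was 2.16 ± 0.07 in NS-si cells against 3.39 ± 0.07 for Sp1-si. The Sp1-si to NS-si ratio was -2.26 ± 0.08 without CoCl2, and with CoCl2 it was -1.02 ± 0.07, so close to the limit that it was -0.91 under median scaling and -0.62 with no scaling.

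SRXN1, the sulfiredoxin that restores overoxidised peroxiredoxins, gave signals of 7354 for NS-si, 2528 for Sp1-si, 15436 for NS-si → CoCl2 and 8903 for Sp1-si → CoCl2 cells. CoCl2 ratios of 1.30 ± 0.06 and 1.59 ± 0.06 were close in the 2 kinds of cell. Its Sp1-si to NS-si ratios were -1.49 and -1.19, the latter -0.79 with no scaling. The window before the SRXN1 start held neither motif. TXN, the thioredoxin itself, gave 42868, 30095, 35854 and 35776 in the same order of arrays. Its CoCl2 ratios were -0.03 and 0.02, and its Sp1-si to NS-si ratios -0.46 and -0.40, with a second probe at -0.45 and -0.46. The mitochondrial partners TXN2 and TXNRD2 had largest ratios of -0.12 and -0.77.

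TXNIP, which binds thioredoxin and blocks its active site, ran the other way. Its signal was 2137 on the NS-si and 14668.5 on the Sp1-si array, and 812 and 11024 after CoCl2. Both Sp1-si arrays stood far above both NS-si arrays, and within each kind of cell the treated array was the lower one. The Sp1-si to NS-si ratio of TXNIP was 2.83 ± 0.07 without CoCl2 (7.13-fold) and 3.36 ± 0.07 with it (10.3-fold), the highest of all members in each. The CoCl2 ratio was -1.17 ± 0.06 in NS-si cells, a call, and -0.64 ± 0.07 in Sp1-si cells, short of one. TXNIP is also known as a gene that responds to glucose, and neither of its promoter windows held a match to either motif.

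The peroxiredoxins, which reduce peroxides with electrons from thioredoxin, hardly moved with CoCl2. Their CoCl2 ratios ran from -0.20 for PRDX5 to 0.09 for PRDX1 in NS-si cells and from -0.06 for PRDX4 to 0.45 for PRDX2 in Sp1-si cells. PRDX1 signals were 109901 for NS-si, 82497 for Sp1-si, 100191 for NS-si → CoCl2 and 110753 for Sp1-si → CoCl2 cells, with no call. PRDX2 was the exception on the Sp1-si arrays. It gave 5643 on the NS-si and 10414 on the Sp1-si array and 4573 and 16629 after CoCl2, ratios of 0.94 ± 0.06 without CoCl2 and 1.46 ± 0.06 with it.

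Of the 5 glutathione peroxidases, which reduce peroxides at the cost of glutathione, GPX3 was called higher and GPX8 lower on the Sp1-si arrays, and the other 3 stayed under 0.5. GPX3 encodes the secreted enzyme of plasma. Its signals were 1989 for NS-si, 9955 for Sp1-si, 1726 for NS-si → CoCl2 and 15516 for Sp1-si → CoCl2 cells, so that both Sp1-si arrays were above both NS-si arrays. The Sp1-si to NS-si ratios of GPX3 were 2.38 ± 0.07 and 2.77 ± 0.07. Its CoCl2 ratios were 0.02 and 0.41.

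GPX8, a membrane protein of the endoplasmic reticulum, was lower on both Sp1-si arrays. Its signals were 1113 and 243 without CoCl2 and 813 and 161 with it. This probe was printed 10 times, and its own spots gave ratios of -2.14 ± 0.09 without and -2.73 ± 0.08 with CoCl2. The other two GPX8 probes gave -1.73 and -2.20 without CoCl2 and -2.27 and -2.69 with it. The CoCl2 ratio of GPX8 was -0.23 in NS-si cells against -0.82 for Sp1-si, the lowest among members in the latter, and short of a call. GPX4, which reduces lipid peroxides in membranes, gave 16850, 16018, 12681 and 21751 in the order NS-si, Sp1-si, NS-si → CoCl2 and Sp1-si → CoCl2, and no ratio of GPX4 was over 0.38 in size. GPX1 and GPX2 stayed within 0.28 of 0.

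Among the 9 measured glutathione transferases, which join glutathione to electrophiles, MGST2 was the 1 called in any ratio (11.1%, against 24.2% of all genes). MGST2, a membrane-bound member, gave 10351 for NS-si, 3684 for Sp1-si, 6779 for NS-si → CoCl2 and 3248 for Sp1-si → CoCl2 cells. Its Sp1-si to NS-si ratios of -1.44 ± 0.07 and -1.46 ± 0.07 were nearly the same without and with CoCl2, and its CoCl2 ratios were -0.38 and -0.41. Among the other 8 the CoCl2 ratios ran from -0.43 for GSTA4 to 0.35 for GSTM2, and none of their Sp1-si to NS-si ratios reached 1. Transferases of 1 class resemble each other in sequence, and how far a probe also binds a neighbour's RNA is not known here.

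GSTA1 was well above background in NS-si and NS-si → CoCl2 cells only, with signals of 13.4 and 9.8, against 7.81 and 7.97 in Sp1-si and Sp1-si → CoCl2 cells. Set against the dimmest signal that passed as well above background on the Sp1-si arrays, or the probe's own where that was higher, GSTA1 was at least 1.65-fold higher in NS-si than in Sp1-si cells and at least 1.26-fold higher with CoCl2. MGST1 was well above background in NS-si → CoCl2 cells only. There it was at least 1.38-fold higher than in NS-si cells and at least 1.13-fold higher than in Sp1-si → CoCl2 cells. Bounds this close to 1 do not place either gene past the limit of a call.

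ME1, the malic enzyme that yields NADPH in the cytosol, was lower on the Sp1-si arrays. It gave 3412 for NS-si, 1194 for Sp1-si, 4346 for NS-si → CoCl2 and 2595 for Sp1-si → CoCl2 cells. The Sp1-si to NS-si ratio of ME1 was -1.46 ± 0.07 without CoCl2 and -1.14 ± 0.07 with it, and the second probe gave -1.04 and -0.62. ME1 with CoCl2 is therefore a call by the brighter probe only. PGD, TKT and TALDO1 of the pentose phosphate pathway were not called, PGD coming nearest with CoCl2 ratios of 0.51 and 0.66.

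Catalase, which breaks down hydrogen peroxide, gave 878 for NS-si, 1546 for Sp1-si, 567 for NS-si → CoCl2 and 1697 for Sp1-si → CoCl2 cells. Both Sp1-si arrays were above both NS-si arrays, with CAT ratios of 0.87 ± 0.08 without CoCl2 and 1.18 ± 0.07 with it, the latter a call. SOD1, the cytosolic superoxide dismutase, stayed within 0.25 of 0 in all 4 ratios. SOD2, its mitochondrial relative, had Sp1-si to NS-si ratios of 0.51 and 0.60.

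ABCC2 and ABCC3 belong to the transporters that export glutathione and glucuronide conjugates. ABCC2 gave 577 for NS-si, 217 for Sp1-si, 718 for NS-si → CoCl2 and 265 for Sp1-si → CoCl2 cells. Its Sp1-si to NS-si ratios were -1.35 ± 0.08 and -1.84 ± 0.09, and a second probe gave -1.47 and -1.57. ABCC3 was dim, with 69.3, 31.0, 47.2 and 35.4 in the same order, and its ratio of -1.11 ± 0.15 without CoCl2 was -0.47 under another background correction. ABCC1, another transporter, UGDH, which makes the sugar donor for glucuronides, and the epoxide hydrolase EPHX1 were not called.

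The difference of the CoCl2 ratios, Sp1-si minus NS-si cells, reached 1 in NQO1 and TXNRD1, 4% of the members against 0.973% of all genes, and fell to -1 in 0 members against 2.88% of all genes. The first count was 4 under quantile normalization, median scaling and no scaling (1.44%, 1.49% and 6.41% of all genes) and 1 with normexp background correction (0.294% of all genes). It is by construction the same number as the Sp1-si to NS-si ratio with CoCl2 minus that without, so neither is separate evidence for the other. For NQO1 it was 1.23 ± 0.11, and 0.87 with normexp. For TXNRD1 it was 1.23 ± 0.10. GCLM at 0.99 ± 0.09 and GCLC at 0.92 ± 0.09 lay just under the limit, and SRXN1 at 0.29 ± 0.09 and MAFG at -0.56 ± 0.09 far from it. NQO1, TXNRD1, GCLM and GCLC, with a difference of 0.92 or more, were all called lower on the untreated Sp1-si array. That array also enters the difference, so a low signal on it raises the difference by construction. Among the other members called lower there, the difference was -0.59 for GPX8, -0.48 for ABCC2 and -0.02 for MGST2. It was 0.29 for SRXN1, 0.30 for ABCC3 and 0.32 for ME1. In NQO1, TXNRD1, GCLM and GCLC the treated Sp1-si array stayed below the treated NS-si array.

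Set against untreated NS-si cells, the Sp1-si → CoCl2 array was higher by 1.09 for GCLC, 1.09 for GCLM and 1.14 for TXNRD1 and about equal for SRXN1 at 0.10. NQO1 remained lower on that array, by a ratio of -2.18. On the treated array with low SP1, GCLC, GCLM and TXNRD1 thus stood above untreated control cells and NQO1 below them.

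12 members had several probes well above background on all arrays. Leaving out GSTM3, the probes of a gene differed by at most 0.52 in any ratio, in ME1, with a median of 0.10. In GSTM3 the brightest probe and the next one gave CoCl2 ratios of -0.03 and -0.12 in NS-si cells. The third GSTM3 probe, whose NS-si signal was 29.7, gave 1.87 and disagreed with both.

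A second list held 54 further genes of the pathway, of which 49 had a probe and 44 were measured. 5 of the 44 were called higher with CoCl2 in NS-si cells against 4 for Sp1-si, against the background shares of 3.75% and 3.37% given above. HMOX1, the heme oxygenase controlled by NRF2 and by the repressor BACH1, had signals of 18564 for NS-si, 28583 for Sp1-si, 211453 for NS-si → CoCl2 and 224792 for Sp1-si → CoCl2 cells. Its CoCl2 ratios were 3.73 and 2.75, and their difference was -0.99, just short of a call. The study counts this gene among those that the hypoxia-inducible factors regulate through hypoxia response elements. Unlike GCLC and TXNRD1, HMOX1 was not lower on the untreated Sp1-si array, with a ratio of 0.68.

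The other small MAF genes followed MAFG. MAFF gave CoCl2 ratios of 2.80 and 1.70 and MAFK of 1.48 and 1.17, and a dimmer MAFK probe gave 0.78 and 0.43. The difference of the CoCl2 ratios was -1.09 for MAFF, the 1 call of the list (2.27%, against 2.88% of all genes called lower). BACH2, a dim repressor gene with 12.2 in NS-si cells, was called with CoCl2 at 1.08 there and not in Sp1-si cells. AKR1B10, an aldo-keto reductase, gave 1.34 and 1.84. H6PD, an enzyme of the pentose phosphate route in the endoplasmic reticulum, was called lower in Sp1-si cells at -1.31 by its brightest probe, but its other probes gave 0.43 and 0.13.

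On the Sp1-si arrays 6 of the 44 further genes were called lower without CoCl2 (13.6%, against 5.64% of all genes), and the same 6 were called lower with it, where 7.7% of all genes were and 4.02% in both. SLC7A11, which brings in the cystine from which glutathione is made, had signals of 3837 for NS-si, 1266 for Sp1-si, 4479 for NS-si → CoCl2 and 1720 for Sp1-si → CoCl2 cells, and ratios of -1.54 and -1.78. AKR1B10 gave -3.73 and -3.23 and AKR1C1, whose close relatives may share its probe, -1.95 and -1.72. TXNDC12, a thioredoxin-like protein of the endoplasmic reticulum, gave -1.92 and -1.96. ALDH3A2, an aldehyde dehydrogenase, gave -1.49 and -1.40, and SOD3, the secreted superoxide dismutase, -2.26 and -2.20. LAP3, an aminopeptidase, was the 1 further gene called higher, at 1.27 with CoCl2 (2.27%, against 7.01% of all genes). Without CoCl2, 0 further genes were called higher, against 5.85% of all genes.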

How the data were processed

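RNA from 4 conditions was labelled with Cy3 and hybridised to 1 Agilent array each. The deposited intensities are the scanner software's processed signals (Agilent Feature Extraction 10.5.1.1, per the file headers), background-subtracted and detrended and not normalized between arrays. Each spot also carries calls of outliers and of signals well above background. The deposited value table equals these intensities times 1 constant per array.

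Here, control spots and outliers were left out, log2 intensities were reduced by the 75th percentile of each array, and spots of a probe were averaged. A probe counted as well above background when at least 50% of its spots did, and a gene was represented by its brightest probe. Symbols came from RefSeq accessions, which matched 28463 spots. The array annotation uses an older build, so no coordinates were taken from it. SDs came from 230 probes with 10 spots, in 5 bins of level averaged over the arrays. Values were given on all arrays for every member called at 1 log2 unit and for 13 core members fixed by name. The counting was tested on simulated data. Python 3.11.15, R 4.3.3 and limma 3.58.1 were used. The members and lists were chosen with earlier results of these data known. Alternatives were other scalings, the value table, normexp background correction, outliers kept, means over probes, no filter on dim probes, and other limits.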

Additional observations from a re-analysis of the deposited data

How the results depend on the processing

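No paired analysis was possible because each condition holds 1 array. Of 37 member ratios past the limit, 32 stayed past it under every alternative, 5 did not, and 0 changed sign. Those 5 were ABCC3 without CoCl2 (-0.47 with normexp), TXNRD1, SRXN1 and ME1 in the Sp1-si to NS-si ratio with CoCl2 (-0.62, -0.79 and -0.74 with no scaling) and the NQO1 difference (0.87 with normexp). TXNRD1 also missed the limit under quantile normalization (-0.97), median scaling (-0.91), the value table (-0.96) and normexp (-0.98). No scaling moved the median of all genes by -0.23, 0.23, -0.06, 0.40 and 0.45 in the CoCl2 ratios of NS-si and Sp1-si cells, the Sp1-si to NS-si ratios without and with CoCl2, and the difference, and median scaling by up to 0.11. Shares of all genes under the same setting follow each count in parentheses. With no scaling, 8 members were called higher with CoCl2 in Sp1-si cells (5.99%), 7 higher (16.0%) and 5 lower (3.52%) in Sp1-si cells with CoCl2, and 4 had a higher difference (6.41%), as did 4 under quantile normalization (1.44%) and 4 under median scaling (1.49%), and 1 with normexp (0.294%). The median over members of the CoCl2 ratio in NS-si cells was -0.032 under quantile normalization, -0.168 with no scaling and -0.0189 in the value table. That in Sp1-si cells was 0.27 under median scaling and 0.39 with no scaling. That of the Sp1-si to NS-si ratio with CoCl2 was 0.0356 and 0.321, and that of the difference 0.27 and 0.63, under the same settings. At a limit of 0.5, 10 members were higher with CoCl2 in NS-si cells (13.1%), and 11 higher (12.9%) and 2 lower (13.8%) in Sp1-si cells. In Sp1-si cells without CoCl2, 7 were higher (16.1%) and 15 lower (16.3%), with CoCl2 9 higher (19.6%) and 12 lower (20.7%), and in the difference 7 higher (8.02%) and 2 lower (10.4%). At a limit of 1.5, 3 were higher (1.43%) and 0 lower (0.791%) with CoCl2 in NS-si cells. In Sp1-si cells, 5 were lower without CoCl2 (2.14%) and 4 lower (2.93%) and 2 higher (2.70%) with it, and 0 had a higher difference (0.266%). Without a filter on dim probes, 1 member had a lower difference (5.70%). No scaling, median scaling and the value table move the ratios of all genes in a comparison by the same amount. Shifts under those settings therefore follow from the scaling. The cause of the other shifts was not tested, beyond the other limits and the added dim probes themselves. Normexp was planned on mean signals and was not run on them; median signals were used instead, a choice made after seeing the data. Ratios of dim probes are limited by signal over background, and with 1 array per condition no alternative measures biological spread.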
